A study of Mus musculus with 8 samples.

Results

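Ctse, Syngr1, Trak2, Rad18, Ifrd2 and Selenbp1 are 6 mouse genes whose transcripts were higher in the blood of mice given restraint stress than in control blood, and they were selected for that difference among 18193 genes named on the arrays. All probe sets assigned to a member symbol alone were taken, which gave 14 of 45101 probe sets, and 12 of these passed the intensity filter among 25084 tested. RST mice were female C57BL/6J mice, bought at an age of 6 to 8 weeks and acclimated before restraint. They were restrained for 6 h per day and sampled on Day 7. Control mice were of the same strain, sex and age, were not restrained, and had their food and water taken away while the RST mice were in their tubes. Whole blood of 4 RST and 4 control mice was profiled, with 30 ng of RNA per mouse amplified and hybridized to a separate 1-color Affymetrix array. Levels are given on the log2 scale for each probe set, so a difference of 1 means a 2-fold difference in signal.

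The 6 genes do not belong to a single pathway. Ctse encodes cathepsin E, an intracellular aspartic protease that in humans is found in the membrane of red cells, and Syngr1 encodes a membrane protein of small vesicles, best known from synapses. Trak2 is an adaptor that links mitochondria to kinesin motors, Rad18 is the ubiquitin ligase that marks PCNA at stalled replication forks, Ifrd2 binds inactive ribosomes in rabbit reticulocytes, and Selenbp1 is a selenium-binding protein that oxidizes methanethiol in humans. Young red cells, the reticulocytes, still hold RNA and are cleared of mitochondria and ribosomes as they mature. The question put to these genes was whether they followed the erythroid genes Slc4a1, the band 3 anion exchanger, and Epb42, protein 4.2 of the red cell membrane, from mouse to mouse within a group.

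Ctse was at 10.03, 10.11, 9.66 and 9.62 in RST mice 1 to 4, against 8.14, 7.47, 8.93 and 8.89 in control mice 1 to 4. Every RST mouse lay above every control mouse, and control mice 1 and 2 were lower than the other two. Its mean was 9.86 ± 0.25 in RST blood and 8.36 ± 0.70 in control blood (SD, n = 4 each), 2.82-fold higher. Syngr1 was at 5.76, 5.60, 5.48 and 4.89 in RST mice, against 4.31, 3.95, 3.37 and 4.14 in control mice. The groups did not overlap, and the low control mouse was mouse 3 here, not mouse 2. Its mean was 5.43 ± 0.38 in RST blood and 3.94 ± 0.41 in control blood (SD, n = 4 each), 2.81-fold higher.

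Trak2 was at 7.60, 7.87, 7.31 and 6.58 in RST mice, against 5.64, 5.32, 6.04 and 6.45 in control mice. RST mouse 4 was the low animal of its group and came close to control mouse 4. Its mean was 7.34 ± 0.56 in RST blood and 5.86 ± 0.49 in control blood (SD, n = 4 each), 2.78-fold higher. Rad18 was at 7.44, 7.57, 7.09 and 5.77 in RST mice, against 5.36, 5.49, 5.58 and 5.74 in control mice. The control values lay close together, and RST mouse 4 stood only 0.031 above the highest of them. Its mean was 6.97 ± 0.82 in RST blood and 5.54 ± 0.16 in control blood (SD, n = 4 each), 2.68-fold higher.

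Ifrd2 was at 6.61, 7.08, 6.69 and 5.93 in RST mice, against 4.84, 5.24, 5.28 and 5.41 in control mice. Its mean was 6.58 ± 0.48 in RST blood and 5.19 ± 0.25 in control blood (SD, n = 4 each), 2.61-fold higher. The groups were apart, again with RST mouse 4 nearest to the control mice. Selenbp1 was at 8.88, 8.93, 8.00 and 7.97 in RST mice, against 7.12, 6.85, 7.01 and 7.63 in control mice. RST mice 1 and 2 were higher than RST mice 3 and 4, and control mouse 4 was the highest of its group. Its mean was 8.45 ± 0.53 in RST blood and 7.15 ± 0.34 in control blood (SD, n = 4 each), 2.45-fold higher.

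**Figure D1:**
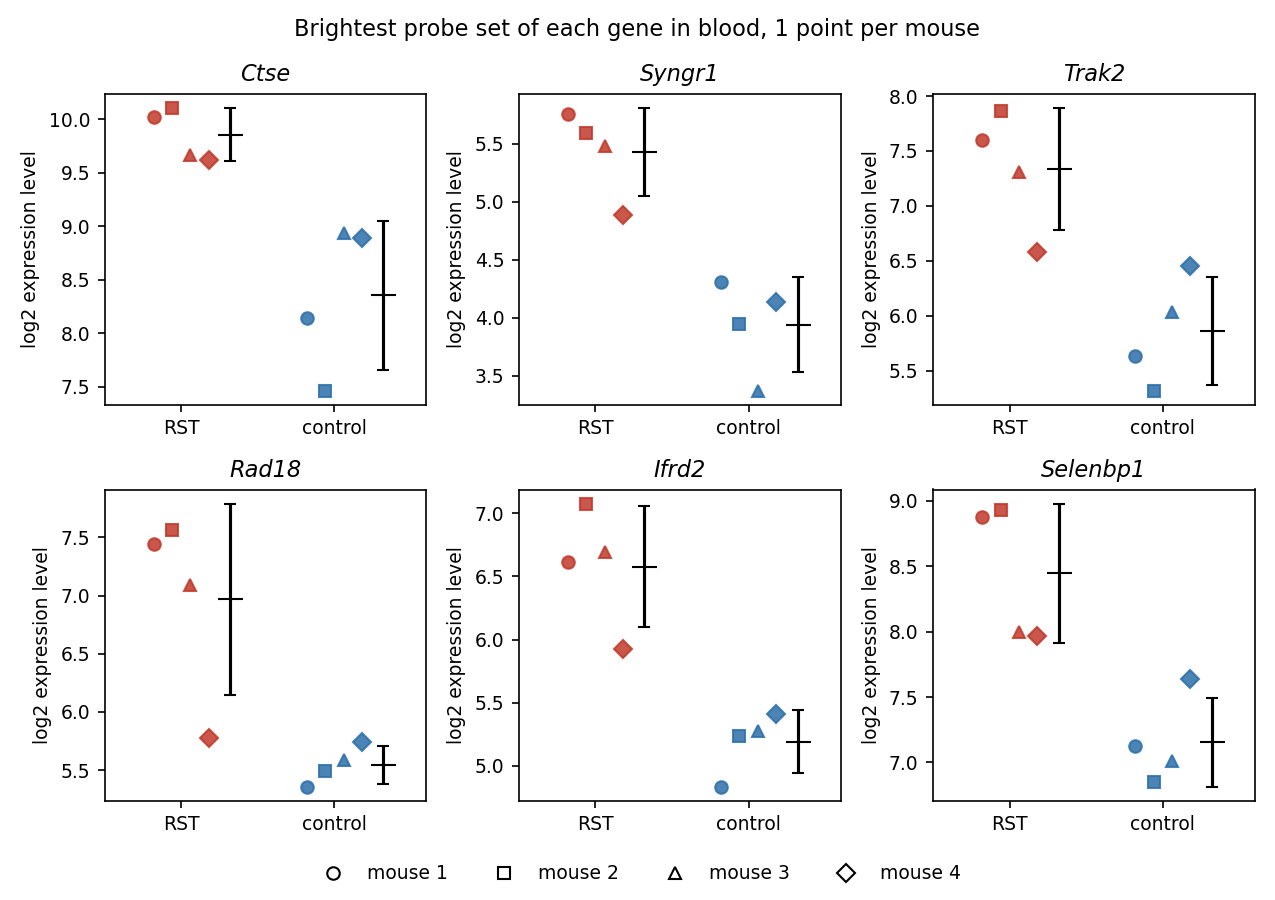
Log2 expression level (vertical axis) of the brightest probe set of each gene in RST mice (red, left) and control mice (blue, right), with a symbol for each mouse and a bar for the mean ± SD of 4 mice. In all 6 panels the RST points lie above the control points, and RST mouse 4 (diamond) is the lowest RST point.

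These differences chose the genes and were not tested. All 14 probe sets had the higher mean in RST blood, and 8 had every RST value above every control value, where 2.23% of all probe sets tested did. The choice of genes fixes these counts, and nothing is read from them. Across all 25084 probe sets, 2.89% were higher with a fold above 1.5 and p, before adjustment, below 0.05, and 0% were after adjustment. The median tested probe set was itself 0.20 lower in RST blood.

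The probe sets of a gene did not all differ to the same degree. The second probe set of Ctse was at 7.06, 7.76, 6.77 and 5.43 in RST mice, against 6.57, 6.61, 6.26 and 6.50 in control mice, a difference of 0.27 (standard error 0.42). The groups overlapped, and RST mouse 4 lay below every control mouse. The second probe set of Trak2 differed by 1.47 (standard error 0.45), close to the brightest one, although RST mouse 4 at 5.69 lay below control mouse 1 at 5.81. Of the 4 probe sets of Rad18, the brightest differed by 1.42 (standard error 0.38) and another by 1.00 (standard error 0.30), and neither overlapped between groups. The remaining Rad18 probe sets differed by 0.16 and 0.05 and overlapped. The other 2 probe sets of Syngr1 lay below the intensity filter and differed by 0.22 and 0.13. Which transcript forms each probe set reads was not examined.

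Selenbp1 has a close relative, Selenbp2, on the same chromosome, and the brightest Selenbp1 probe set is designed on an accession that RefSeq now gives to Selenbp2. The other probe set, designed on an accession of Selenbp1 itself, was at 8.88, 8.70, 7.80 and 7.57 in RST mice, against 6.99, 6.71, 6.88 and 7.42 in control mice. Every RST mouse lay above every control mouse, with a difference of 1.24 (standard error 0.34). The expression of Selenbp1 and Selenbp2 cannot be told apart by the brightest probe set, and no probe set was assigned to Selenbp2 alone among those tested.

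**Figure D2:**
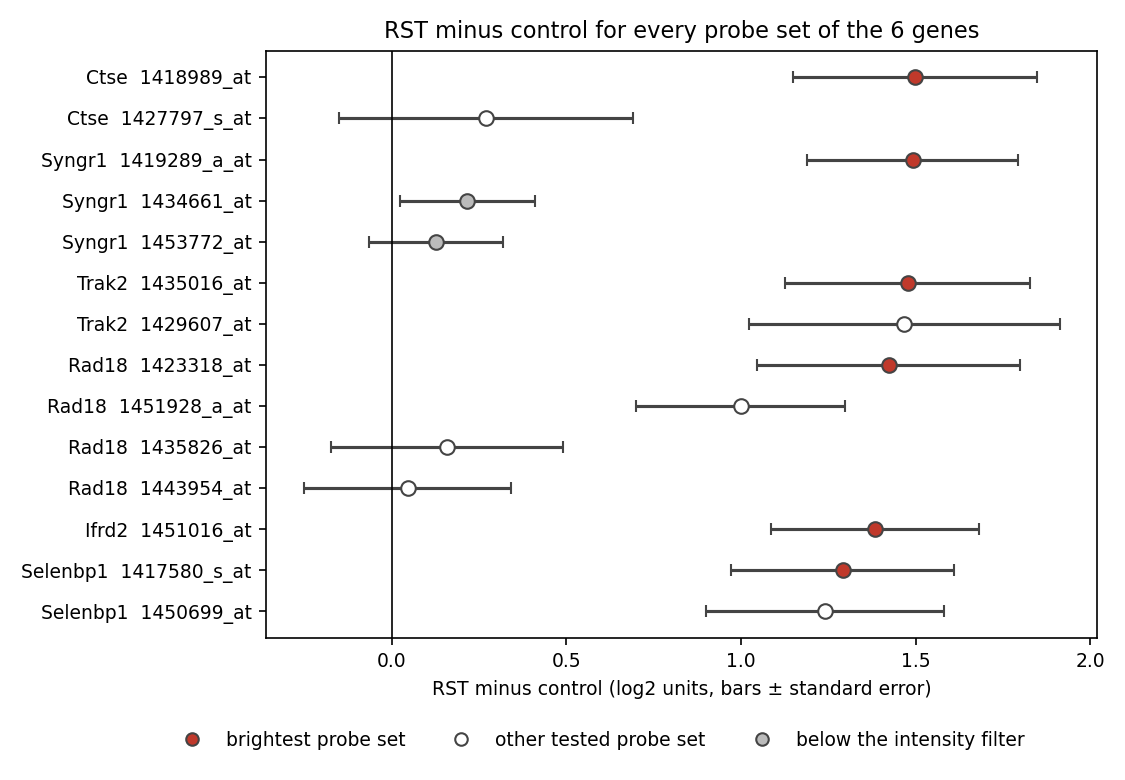
RST minus control in log2 units (horizontal axis) for each of the 14 probe sets, with bars of ± 1 standard error from limma (4 mice per group); the brightest probe set of a gene is red, other tested probe sets white and those below the intensity filter gray. The brightest probe sets lie at 1.29 or above, while the second Ctse probe set and 2 of the 4 Rad18 probe sets lie near 0.

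Erythroid content was measured as the mean log2 level of the brightest Slc4a1 and Epb42 probe sets, called the erythroid index here. Slc4a1 was at 12.65, 12.68, 12.60 and 12.54 in RST mice, against 11.79, 11.56, 12.32 and 12.27 in control mice. Epb42 was at 9.07, 9.11, 8.93 and 8.63 in RST mice, against 7.24, 6.72, 8.01 and 8.34 in control mice. By these probe sets both genes were lowest in control mice 2 and 1, and varied little among RST mice. The other Epb42 probe set varied more, at 7.12, 7.39, 6.45 and 5.73 in RST mice. So did a dimmer Slc4a1 probe set, at 5.62, 5.60, 4.34 and 4.01, and both overlapped between groups. The remaining Slc4a1 probe set, at 12.58, 12.65, 12.53 and 12.38 in RST mice, varied little and did not overlap. The index was 10.86, 10.90, 10.77 and 10.58 in RST mice, against 9.52, 9.14, 10.17 and 10.30 in control mice, a difference of 0.99 (two-sided exact permutation test over mice, p = 0.029, the smallest that 4 against 4 allows). The gene lists, the index included, were chosen with earlier results of these data known, so that p-value is given as a description. In whole blood, more erythroid cells and more RNA per erythroid cell cannot be told apart.

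Because the genes were chosen on the group difference, each was compared with the index after removing group means, so that only differences among mice of the same group count. Control mice carried 93.8% of the within-group sum of squares of the index. Slopes below are log2 units of the gene per log2 unit of the index, from limma with group as a term. Correlations were tested by exact permutation of mice within groups (576 arrangements, two-sided). There were 30 in all, 18 of them against the index, Slc4a1 and Epb42, and the rest against the hybridization controls and the upper quartile of each array.

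By the brightest probe sets, Ctse had the highest correlation with the index among the 6 genes. Its slope was 1.27 (95% interval 0.56 to 1.98, unadjusted p = 0.0029 and adjusted p = 0.72 in limma), with r = 0.97 (exact permutation p = 0.0052) and a Spearman rho of 0.95 (exact permutation p = 0.014). Only 0.0957% of tested probe sets had an r as high. With the 2 mice farthest from the median index left out, control mice 2 and 4, r remained 0.95. Ctse followed Slc4a1 (r = 0.97, exact permutation p = 0.0017) and Epb42 (r = 0.96, exact permutation p = 0.0069) alike. The second Ctse probe set did not share this, with a slope of 0.23 (95% interval -1.20 to 1.67) and r = 0.13, and the mean of both Ctse probe sets had r = 0.64.

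Trak2 came next, with a slope of 1.06 (95% interval 0.18 to 1.94, unadjusted p = 0.024 and adjusted p = 0.72 in limma). Its r was 0.81 (exact permutation p = 0.0017, the smallest the arrangements allow) and its rho 0.86 (exact permutation p = 0.0035), with r = 0.70 after leaving out control mice 2 and 4. The second Trak2 probe set had a slope of 0.72 with a 95% interval of -0.73 to 2.16 and r = 0.38. The mean of both Trak2 probe sets had r = 0.60. At an unadjusted p under 0.05 in limma, Ctse and Trak2 were thus the 2 genes of 6 with a slope above 0, where 3.87% of probe sets had one, and at an adjusted p under 0.05 there were 0 of 6 and 0% of all. Without control mouse 2 the count among the 6 genes was 0, and without control mouse 4 it was 1.

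Syngr1 had a slope near 0 on the index over these mice. Its slope was -0.07 (95% interval -1.06 to 0.92, adjusted p = 0.97 in limma), with r = -0.07 (exact permutation p = 0.93) and rho = -0.02 (exact permutation p = 0.98). The interval leaves room for a slope near 1 in either direction. In control mice Syngr1 lay at 3.37 to 4.31, below the median of tested probe sets on their arrays, 4.89 to 5.10. Background correction compresses differences at low levels, and its part in the slope of Syngr1 was not tested. Control mouse 3, which had the second highest index of its group, had the lowest Syngr1 level of all 8 mice, and control mouse 1, second lowest in index, the highest Syngr1 level of its group. With control mice 2 and 4 left out, r was -0.31. Its sign depended on the mice and on the index: r was 0.37 without control mouse 3 and 0.92 with control mice 1 and 2 left out.

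Rad18, Ifrd2 and Selenbp1 lay between. The slope was 0.56 (95% interval -0.65 to 1.77) for Rad18, 0.41 (-0.51 to 1.34) for Ifrd2 and 0.61 (-0.35 to 1.57) for Selenbp1. None had an unadjusted p under 0.05 in limma, and their adjusted p lay between 0.74 and 0.80. The other tested Rad18 probe sets had slopes on the index of -0.11, 0.76 and 0.25, with r = -0.12, 0.64 and 0.26. The one with the slope below 0 was the one that differed by 1.00 between groups. These probe sets were not tested by permutation. By its brightest probe set, Rad18 had r = 0.38 (exact permutation p = 0.014) and rho = 0.64 (exact permutation p = 0.010). Its mice were ordered much as the index orders them within each group, but RST mouse 4 lay far below the other RST mice beside a small difference in index, while control mice differed little. Ifrd2 had r = 0.44 (exact permutation p = 0.12) and rho = 0.64 (exact permutation p = 0.052), and Selenbp1 r = 0.55 (exact permutation p = 0.056) and rho = 0.57 (exact permutation p = 0.063). With control mice 2 and 4 left out, r was 0.56 for Rad18, 0.72 for Ifrd2 and 0.32 for Selenbp1.

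A wider index, the mean of the red cell membrane list, which includes Slc4a1 and Epb42, gave another order. Against it r was 0.92 for Trak2, 0.81 for Rad18, 0.79 for Selenbp1, 0.71 for Ctse, 0.69 for Ifrd2 and 0.53 for Syngr1. The median over the 6 genes was 0.75, beside 0.49 with the index of Slc4a1 and Epb42. At an unadjusted p under 0.05 in limma, 3 of the 6 genes had a slope above 0. So did 1349 of 25079 probe sets, where 970 did with the index of Slc4a1 and Epb42. Both counts leave out only the probe sets of Slc4a1 and Epb42. The first can thus include other genes of the wider index itself, and the counts are not fully alike. The median r of all probe sets with the wider index was not computed. The order of the genes, with Ctse first and Syngr1 near 0, was thus seen with the index of Slc4a1 and Epb42 and not with the wider one. The wider index was 6.82 to 8.04 in RST mice, lowest in RST mouse 4, against 6.34 to 7.13 in control mice. RST mouse 4 also had the lowest upper quartile of all values, 4.50, and was the lowest RST mouse for all 6 genes. The part of that mouse in the r values with the wider index was not tested.

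**Figure D3:**
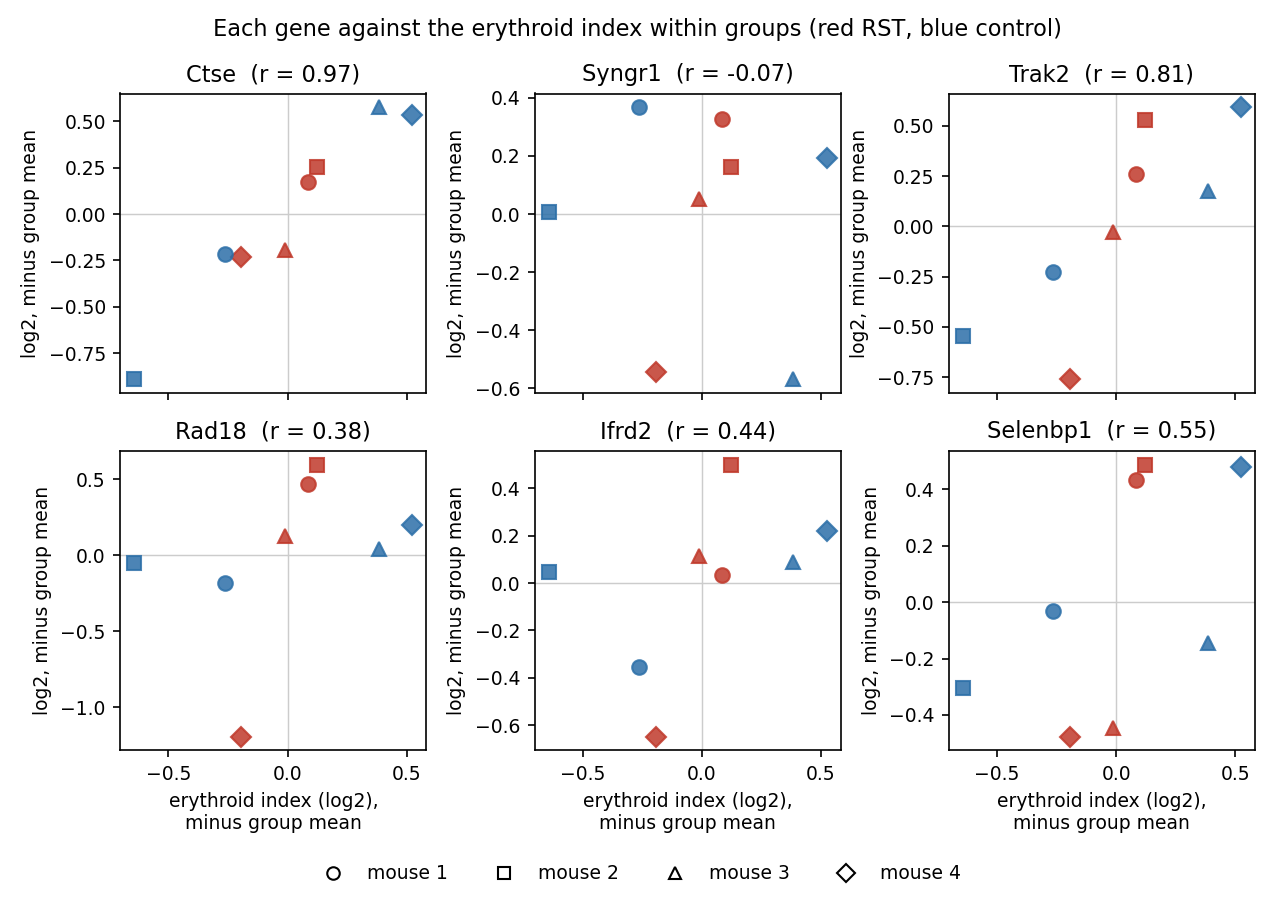
Each gene's log2 level minus its group mean (vertical axes, on separate scales) against the erythroid index minus its group mean (horizontal axis, log2 units), for 4 RST mice (red) and 4 control mice (blue), with Pearson's r over the 8 mice. Ctse and Trak2 lie along a rising line (r = 0.97 and 0.81), Syngr1 does not (r = -0.07), and in the Rad18 and Ifrd2 panels RST mouse 4 (red diamond) lies far below the other mice.

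Across all tested probe sets the median within-group r with the index was -0.05. The 6 genes had a median of 0.49, with a range of -0.07 to 0.97, as a description of genes chosen for another contrast. The share of tested probe sets with an r at least as high as the gene's was 2.92% for Trak2, 13.6% for Selenbp1, 20.0% for Ifrd2, 23.3% for Rad18 and 51.5% for Syngr1. By their brightest probe sets, Ctse and Trak2 were thus in the upper few percent, and the other 4 genes were not. The second probe sets of Ctse and Trak2, with r = 0.13 and 0.38, were not so placed.

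**Figure D4:**
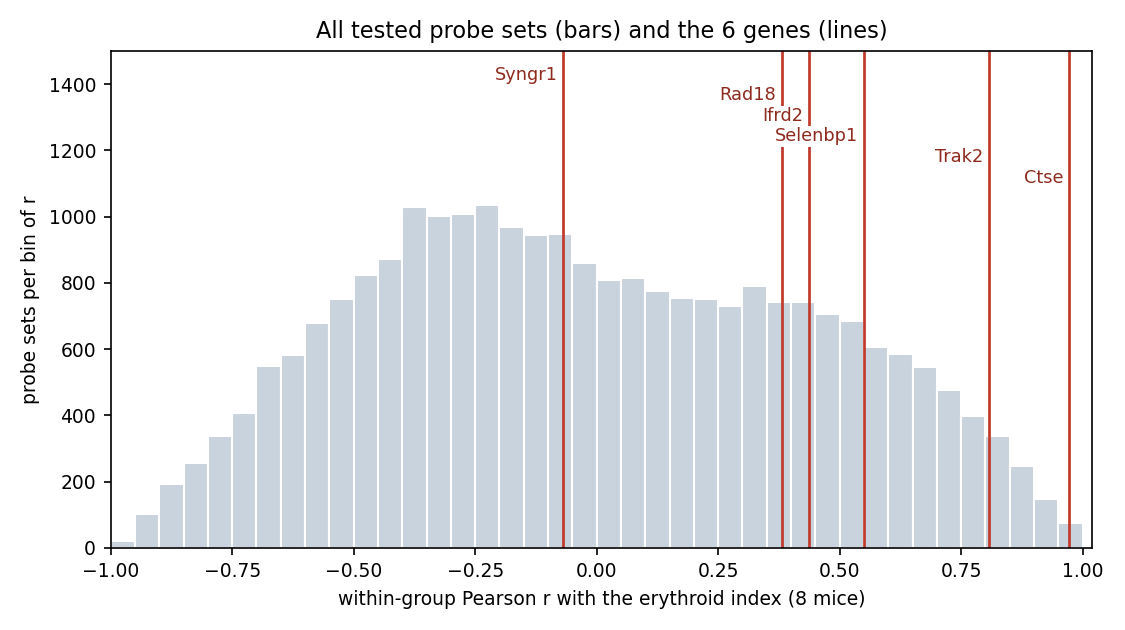
Number of tested probe sets (vertical axis) by within-group Pearson r with the erythroid index over 8 mice (horizontal axis, bins of 0.05). Red lines mark the brightest probe set of each of the 6 genes. Ctse (0.97) and Trak2 (0.81) lie in the right tail, while Syngr1 (-0.07) lies near the median of -0.05.

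RST and control mice were then set side by side at an equal index, by the group term of the same fit. The difference left was 0.24 (standard error 0.38) for Ctse and 0.42 (standard error 0.48) for Trak2, beside full differences of 1.498 for Ctse and 1.477 for Trak2. It was 0.68 (standard error 0.52) for Selenbp1, 0.86 (standard error 0.65) for Rad18, 0.97 (standard error 0.50) for Ifrd2 and 1.56 (standard error 0.53) for Syngr1. The part left is the full difference, which chose the genes, minus the slope times the index difference between groups. With full differences of similar size, its order was set by the slopes given above and is no further result. The part left was smallest for Ctse and Trak2, which had the highest slopes. For Syngr1, which had the lowest slope, the part left was as large as the full difference. The lowest RST index, 10.58, was above the highest control index, 10.30, so these values extend each group's line beyond its own mice. They are given without a test.

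The hybridization controls moved with the index. The 18 hybridization control probe sets, which read transcripts added at hybridization, averaged 12.71, 12.35, 12.73 and 12.71 in RST mice, against 11.93, 11.90, 12.74 and 12.60 in control mice, and correlated with the index within groups at r = 0.78. Control mice 1 and 2 were therefore low in both. With these controls as a covariate the slope was 1.40 for Ctse (unadjusted p = 0.017 in limma), 1.84 for Trak2 (unadjusted p = 0.0062 in limma) and 1.53 for Selenbp1 (unadjusted p = 0.022 in limma). Rad18 at 1.59, Ifrd2 at 0.98 and Syngr1 at 0.81 did not pass (unadjusted p = 0.063, 0.14 and 0.20 in limma). At an unadjusted p under 0.05 in limma, 1664 of 25079 probe sets had a slope above 0 in this fit, where 970 did without the covariate. The second probe sets of Ctse, Trak2 and Selenbp1 had slopes of 1.95, 2.82 and 1.59 (unadjusted p = 0.026, 0.00045 and 0.031 in limma). The other Rad18 probe sets had slopes of 0.67, 0.96 and 0.11. The upper quartile of all values was 5.06, 5.19, 5.11 and 4.50 in RST mice, against 5.37, 5.36, 5.13 and 5.14 in control mice. RST mouse 4 was lowest there and was the lowest RST mouse for all 6 genes. Within groups the upper quartile had r = 0.81 with Rad18 (exact permutation p = 0.21), 0.74 with Syngr1 (exact permutation p = 0.064) and 0.65 with Ifrd2 (exact permutation p = 0.24). Its r was 0.41 with Trak2, 0.36 with Selenbp1 and -0.14 with Ctse. With RST mouse 4 and control mouse 3 left out, r lay between -0.69 and -0.12 for the 6 genes. The part of array brightness in the low values of RST mouse 4 was not tested further. With control mice 1 and 2 left out, a choice made after the values were seen, 5 of the 6 genes had a slope above 0 at an unadjusted p under 0.05 in limma, as did 4571 of all probe sets, and the index then varied mainly through RST mouse 4.

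Among themselves the 6 genes had a median within-group r of 0.60 over 15 pairs, as a description over 8 shared arrays. Rad18 and Ifrd2 were closest, at 0.90, and Trak2 had 0.80 or more with Rad18, Ifrd2 and Selenbp1. Ctse and Syngr1 were farthest apart, at -0.08. The genes most like the mean of the 6, by within-group r among 11756 genes, were Clcn3 (0.99), a chloride-proton exchanger of endosomes, Nipa1 (0.99), a magnesium transporter, Aplf (0.99), a DNA end-joining factor, and Ctsf (0.98), a lysosomal cathepsin, followed by Vangl1, Psme4, Yipf2, Pigq, Smdt1 and Samd10 at 0.97. Epb42 had 0.70 (rank 1224) and Slc4a1 0.56 (rank 2661) with this mean, although Ctse alone was close to both. In all, 1.11% of genes had an r above 0.9, with a median of 0.29.

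Relatives and partners of each gene were counted beside it. The fit calls 0 of them at an adjusted p under 0.05, so counts use a fold above 1.5 and p, before adjustment, below 0.05, where 2.80% of 11762 genes were higher and 12.8% lower, with a median difference of -0.24. Of 12 other cathepsins, 1 was higher and 2 were lower, with a median of -0.39. The higher one was Ctsb, a lysosomal cysteine protease, at 12.08, 12.25, 11.91 and 11.99 in RST mice, against 11.07, 11.21, 11.61 and 11.62 in control mice. Its groups did not overlap, and its difference was 0.68 (standard error 0.25). Ctsh (-0.95) and Ctss (-0.81), proteases of antigen-presenting and other white cells, were the lower pair. Ctsf had a difference of 0.90 (standard error 0.56), with RST mouse 4 at 5.28 below control mouse 4 at 7.15.

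Of 5 relatives of Syngr1 among vesicle proteins, 0 were counted in either direction, and Syngr2, the form found outside the nervous system, differed by -0.90 (standard error 0.50) and Scamp3, a secretory carrier protein, by -0.38 (standard error 0.31). Of 13 genes of mitochondrial transport, Kif5c, a kinesin heavy chain, was higher (0.83) and Mfn2, a mitochondrial fusion protein, lower (-0.80). Trak1, the closest relative of Trak2, differed by -0.41 (standard error 0.33), and Rhot1, the mitochondrial GTPase that binds both, by -0.07 (standard error 0.32). The difference between Trak2 and Trak1 was not itself tested.

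Of 19 genes of PCNA ubiquitination and translesion synthesis, 17 had the lower mean in RST blood, as did 67.6% of all genes, with a median of -0.55, and 5 were counted lower and 0 higher. Rpa3, a subunit of the single-strand binding protein RPA, differed by -1.25 (standard error 0.39) and Rev3l, the catalytic subunit of polymerase zeta, by -1.08 (standard error 0.35). Pcna, the clamp that Rad18 modifies, differed by -0.55 (standard error 0.29). An exception was Ube2b, the ubiquitin-conjugating partner of Rad18, at 12.69, 12.69, 12.54 and 12.65 in RST mice, against 11.98, 11.75, 12.23 and 12.48 in control mice. Its groups did not overlap, its difference was 0.53 (standard error 0.25), and its within-group r with the index was 0.94, whereas the related Ube2a differed by -0.29 (standard error 0.43).

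For Ifrd2, 0 of 11 genes of ribosome inactivation and recycling were counted higher and 2 lower, Mcts1 (-1.19), which helps recycle small ribosomal subunits, and Abce1 (-0.69), which splits ribosomes. Its relative Ifrd1 differed by 0.29 (standard error 0.29). For Selenbp1, 0 of 18 genes of selenium and methanethiol metabolism were counted higher and 1 lower, Secisbp2 (-0.84), which directs selenocysteine insertion. Txnrd2, the mitochondrial thioredoxin reductase, differed by 0.63 (standard error 0.30) with a within-group r of 0.86 with the index.

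**Figure D5:**
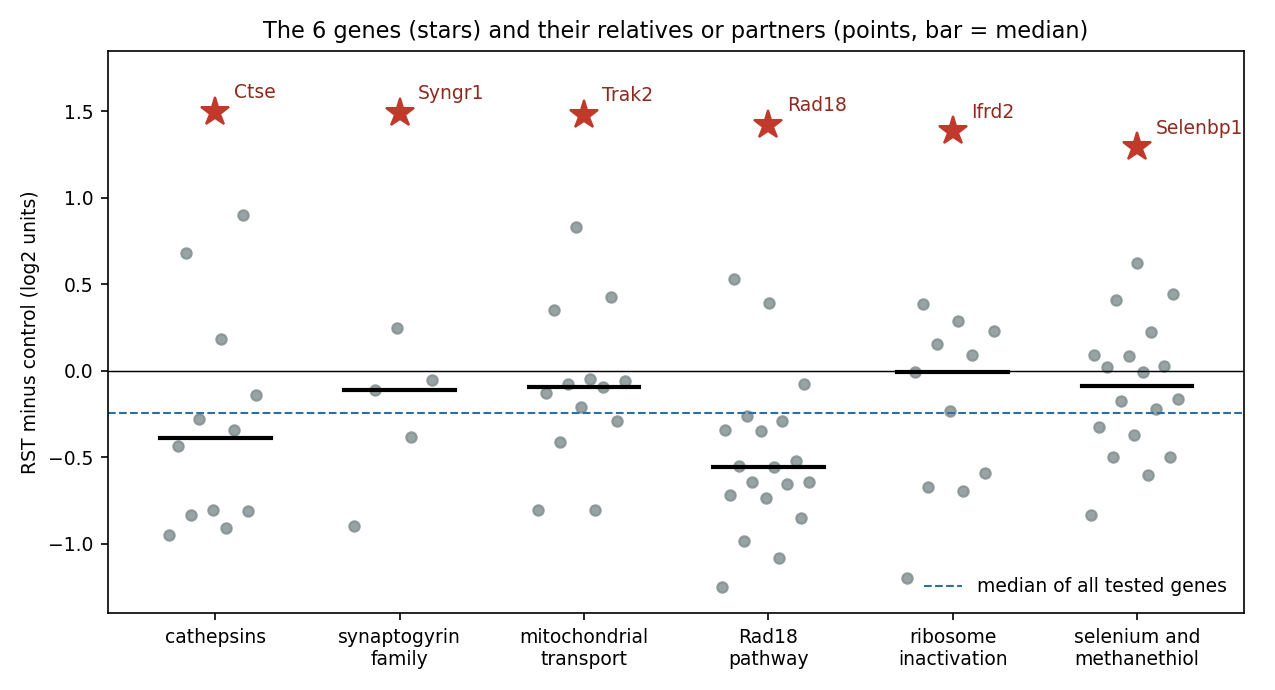
RST minus control in log2 units (vertical axis) for each of the 6 genes (stars) and for the tested genes of its family or pathway (points), with a black bar at the list median and a dashed line at the median of all tested genes, -0.24. The list medians lie between -0.55 and 0, below all 6 stars.

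Erythroid lists were counted by the same rule. Of 14 red cell membrane genes other than Slc4a1 and Epb42, 7 were higher and 0 lower, with a median within-group r with the index of 0.62. Of 18 genes of reticulocyte maturation 5 were higher and 0 lower, with a median r of 0.74, and all 18 had the higher mean, as did 32.4% of all genes. Of 13 heme and globin genes, 1 was higher and 1 lower, with a median r of 0.58. Markers of other cells were counted as well. Of 10 B cell markers 0 were higher and 9 lower, and their mean level lay between 6.57 and 7.23 in RST mice, against 7.47 to 8.47 in control mice. Of 10 T cell markers 5 were lower, with a mean level of 5.95 to 7.13 in RST mice, against 7.09 to 7.68 in control mice. Of 11 neutrophil and 9 monocyte markers 3 each were lower and 0 higher. Platelet markers (11) had 0 in either direction, at 9.32 to 9.91 in RST mice and 9.30 to 9.64 in control mice, and so had 7 genes of stomach and brain, tissues where Ctse and Syngr1 are abundant, at 3.73 to 4.37 in RST mice and 3.61 to 4.47 in control mice. These 7 genes, chosen as genes of other tissues, had a median within-group r with the index of 0.59, above the 0.49 of the 6 genes. The part of cell composition in the members' difference was not tested beyond the index.

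Promoters were read for motifs of erythroid and glucocorticoid factors. The shared difference between groups was the basis of selection and is no ground for shared control. Windows of 300 bases, from 250 before to 50 after a start site, were taken from RefSeq (GRCm38.p6) for 5 of the 6 members. No window was at hand for Ctse, the member closest to the index, or for Slc4a1. Shown are Trak2, with r = 0.81 to the index, Syngr1, with r = -0.07, Rad18, the member with a GATA match, and Epb42 of the index. Each is written on the strand of its gene, with matches to GATA motifs (AGATAA, its variant TGATAA, and either of them with a final G) and to the KLF motif CCNCNCCC in capitals, on both strands.
Trak2 (chr1:58973433-58973732, minus strand): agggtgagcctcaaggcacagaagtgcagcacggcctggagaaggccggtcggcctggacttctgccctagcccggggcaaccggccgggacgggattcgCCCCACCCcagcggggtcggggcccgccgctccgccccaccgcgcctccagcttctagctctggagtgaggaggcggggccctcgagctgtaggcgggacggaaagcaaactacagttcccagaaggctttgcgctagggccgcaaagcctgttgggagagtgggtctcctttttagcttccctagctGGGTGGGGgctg
Syngr1 (chr15:80091084-80091383, plus strand): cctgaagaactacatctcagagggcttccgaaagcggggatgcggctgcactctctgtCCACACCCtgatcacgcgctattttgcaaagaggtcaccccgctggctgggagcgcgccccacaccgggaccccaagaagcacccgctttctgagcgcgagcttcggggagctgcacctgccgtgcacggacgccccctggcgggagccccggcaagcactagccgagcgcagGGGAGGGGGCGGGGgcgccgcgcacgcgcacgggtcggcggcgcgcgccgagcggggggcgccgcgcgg
Rad18 (chr6:112696621-112696920, minus strand): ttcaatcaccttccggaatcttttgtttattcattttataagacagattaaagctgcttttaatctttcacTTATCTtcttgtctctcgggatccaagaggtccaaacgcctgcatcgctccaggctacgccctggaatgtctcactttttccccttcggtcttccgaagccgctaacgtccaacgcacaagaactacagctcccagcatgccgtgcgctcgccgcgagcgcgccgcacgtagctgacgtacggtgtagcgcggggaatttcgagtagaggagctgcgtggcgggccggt
Epb42 (chr2:121036828-121037127, minus strand): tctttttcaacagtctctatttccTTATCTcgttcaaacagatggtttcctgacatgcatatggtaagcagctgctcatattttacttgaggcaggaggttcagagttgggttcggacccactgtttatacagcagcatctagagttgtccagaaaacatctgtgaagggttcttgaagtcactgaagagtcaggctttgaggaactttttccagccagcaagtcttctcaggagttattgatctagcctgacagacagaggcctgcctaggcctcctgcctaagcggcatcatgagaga

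A KLF match was found in the windows of Syngr1 (4 matches, 3 of them overlapping in a single GC-rich stretch), Trak2 (2), Ifrd2 (2) and Selenbp1 (1), and 49.5% of 32851 mouse promoter windows hold one. A GATA match was found for Rad18, starting at position -179 from the start site shown and at -201 in the window of another Rad18 start site. Epb42 had one at position -226, and 29.8% of windows hold one. The glucocorticoid receptor half-site AGAACA was found in none of the member windows or that of Epb42, and 19.0% of windows hold it. The windows of Trak2 and Syngr1 both carry the KLF letters and no GATA match. A match says only that the letters are present.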

How the data were processed

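Blood RNA of 4 RST and 4 control mice was hybridized to Affymetrix mouse arrays. The authors deposited log2 values per probe set, made with RMA, Partek and Affymetrix Expression Console (version 1.2.0.20) according to the submitters' processing notes and with GSRMA according to the methods. Background correction and normalization were thus done before deposit, and background correction compresses differences at low levels. Presence calls were not used here: probe sets above their array's median in at least 2 arrays of a group were kept, and 64 control probe sets were left out. Probe sets were named by platform annotation (34958 with 1 gene, 932 with several, 9211 not listed) and updated to GRCm38.p6 symbols. The probe set with the highest mean among those kept stood for its gene.

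Group differences were fitted in limma 3.58.1 (lmFit, eBayes; R 4.3.3) with Benjamini-Hochberg adjustment over all tested probe sets. The slope on the erythroid index was fitted with group as a term. The 5 probe sets of Slc4a1 and Epb42 were left out of the slope counts. Exact permutations were run in Python 3.11.15. Fits were checked on simulated data. The members and gene lists were chosen with earlier results of these data known. Named are the members, the index genes, the 10 genes most like the member mean, and the 2 genes of each partner list with the smallest p. Ctsb, Trak1, Rhot1, Pcna, Ube2a, Ube2b and Ifrd1 were picked after their values were seen. Arrays correlated at 0.88 to 0.96 within groups and at 0.86 to 0.95 between groups. The number of arrays, 4 per group, limits the precision. Scan dates were not used here. Figures were drawn with matplotlib 3.10.9.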

Additional observations from a re-analysis of the deposited data

Results flagged for a closer look

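The hybridization controls of RST mouse 2, at 12.35, stood far below those of the other RST mice, which lay between 12.71 and 12.73. Among 44 groups of 4 values examined this was the only one so far apart, and chance sets about 1 in 20 groups apart by this measure. RST mouse 2 had the highest erythroid index and the highest level of 5 of the 6 genes in its group.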

How the results depend on the processing

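The difference between RST and control mice was above 0 for all 6 genes in 90 of 90 alternative values (0.66 to 1.82), and the lowest value was that of Rad18 averaged over its tested probe sets. The genes were chosen for this difference on the same arrays, so its sign was largely fixed by the choice and nothing is read from that count. For Ctse that average gave 0.88. The within-group r with the index was above 0 in 85 of 96 values. The r of Syngr1 ran from -0.34 after quantile normalization to 0.92 with control mice 1 and 2 left out, and the r of Ctse was 0.64 over the mean of its probe sets. The count of probe sets higher in RST blood was 724, and it was 1415 after quantile normalization, 292 after control probe scaling, 2177 with array medians subtracted, 1448 with array weights, 225 with control mice 1 and 2 left out, and 428 to 1290 without single mice (lowest without control mouse 2, highest without RST mouse 4). With a trended robust prior, 35 passed the adjusted threshold. The count of probe sets following the index was 970, and it was 180 after control probe scaling, 3026 with array medians subtracted, 2149 without the intensity filter, 432 with the filter at the 75th percentile, 2620 with array weights, 1664 with hybridization controls as a covariate, 4571 with control mice 1 and 2 left out, and 461 to 1706 without single mice (lowest without control mouse 2, highest without RST mouse 2). With the trended robust prior, 2 passed the adjusted threshold for the index. The number of the 6 genes following the index was 2, and it was 3 after quantile normalization, 1 after control probe scaling, 5 with control mice 1 and 2 left out, and 0 to 2 without single mice (0 without control mouse 2). The median r of the 6 genes was 0.49. It was 0.73 after quantile normalization, 0.37 after control probe scaling, 0.91 with control mice 1 and 2 left out and 0.36 to 0.64 without single mice. The cause of these shifts was not tested. Replicate numbers did not pair the mice (deviations of same-numbered mice correlated at -0.24, 0.42, 0.05 and 0.20, and 1 of 8 mice correlated best with its own number), and with the replicate block 622 probe sets and 4 of the 6 genes followed the index.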
